A study of Homo sapiens with 6 samples.

Results

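The genes described here are 10 amino acid carriers of the plasma membrane, SLC7A1, SLC7A5, SLC7A11, SLC3A2, SLC38A1, SLC38A2, SLC1A4, SLC1A5, SLC6A9 and SLC43A1. Members were taken by gene symbol, with every probe that the array's signal table lists under one of those symbols. This gave 15 of the table's 47231 probes and 10 of its 31334 symbols. Of these, 12 probes and 9 genes were above background on enough arrays to be tested, beside 20657 probes and 15300 genes in all. SLC43A1 was not tested.

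RNA came from U2OS cells, a human osteosarcoma line, on 6 Illumina bead arrays that each read 1 biotin-labelled sample. The shTUSC4 group held 3 samples of cells with a stable knockdown of TUSC4 by a short hairpin RNA, and the shCtrl group held 3 samples of the same line with a control hairpin, which the labels also call parental. The labels do not say whether the hairpin cells were 1 clone or a pool, nor whether the samples of a group were separate cultures, so the p-values cover the spread among these samples alone, and that spread may be technical. The samples lay in adjacent places of 1 BeadChip with each group in neighbouring places, so place and group cannot be told apart.

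Cells cannot make every amino acid, and charged or polar amino acids cross the membrane at useful rates only through carriers. SLC7A5, a light chain, works as a pair with the heavy chain SLC3A2 and imports leucine and other large neutral amino acids in exchange for ones already inside, such as glutamine, which SLC1A5, SLC38A1 and SLC38A2 bring in. TUSC4, now named NPRL2, is a subunit of GATOR1, which holds the growth kinase mTORC1 off when such amino acids are scarce. Many carrier genes are known targets of ATF4, a transcription factor made when amino acids run short or the endoplasmic reticulum is stressed.

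RefSeq promoter windows, 250 bases before to 50 after a transcript start (GRCh38.p14), were found for 9 of the 10 genes, with 16 windows because some genes have several starts. SLC7A11 had none in the table. The core of the amino acid response element that ATF4 binds (TGATGNAA, either strand) occurred in 5 of the 16 windows, against 3.62% of all 35116 windows. Those were 1 window each of SLC7A1, SLC3A2, SLC38A1, SLC1A4 and SLC1A5. The match began 97 bases before the start in SLC1A5, 7 before in SLC1A4 and 4 before in SLC38A1, while in SLC7A1 and SLC3A2 it lay after the start, at positions 8 and 38. The core of the antioxidant response element that NRF2 binds (TGACNNNGC, either strand) occurred in 4 of the 16 windows, in SLC7A1, SLC7A5, SLC3A2 and SLC1A5, against 13.3% of all windows. The E-box CACGTG, a motif of MYC and related factors that reads the same on both strands, occurred in 3 windows, those of SLC7A5, SLC1A5 and SLC43A1, against 7.26% of all. No match of one motif overlapped a match of another. The bases before the start follow for the 3 carriers with the largest rises, with the 2 response elements in capitals. For SLC3A2 and SLC1A5, which have several windows, the window with the amino acid response core is printed. The printed bases of SLC6A9 hold neither, those of SLC3A2 the antioxidant core and those of SLC1A5 the amino acid response core. The SLC3A2 window also holds the amino acid response core, at position 38 after the start and so beyond the printed bases. The SLC3A2 and SLC1A5 windows belong to starts inside the annotated genes, and the other SLC1A5 windows did not hold the amino acid response core. The other SLC3A2 windows held neither response element. The antioxidant core and E-box of SLC1A5 lay in a window that is not printed.
SLC6A9, chr1:44031463-44031712, minus strand: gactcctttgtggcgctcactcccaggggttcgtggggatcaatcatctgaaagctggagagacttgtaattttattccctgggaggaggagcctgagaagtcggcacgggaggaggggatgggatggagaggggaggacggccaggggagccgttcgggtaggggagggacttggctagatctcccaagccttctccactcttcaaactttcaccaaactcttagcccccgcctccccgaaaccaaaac
SLC3A2, chr11:62881449-62881698, plus strand: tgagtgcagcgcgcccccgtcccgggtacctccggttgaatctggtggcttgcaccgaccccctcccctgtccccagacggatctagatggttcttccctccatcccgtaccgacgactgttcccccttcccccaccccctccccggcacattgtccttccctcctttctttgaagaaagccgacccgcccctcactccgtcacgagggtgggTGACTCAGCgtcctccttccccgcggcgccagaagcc
SLC1A5, chr19:46784815-46785064, minus strand: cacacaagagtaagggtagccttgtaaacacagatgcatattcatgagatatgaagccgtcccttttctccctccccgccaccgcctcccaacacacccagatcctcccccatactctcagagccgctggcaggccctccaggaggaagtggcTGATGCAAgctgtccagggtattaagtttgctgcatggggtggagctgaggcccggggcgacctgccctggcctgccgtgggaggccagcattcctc

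The calls among the carriers went one way. With the TUSC4 hairpin 7 of the 9 tested genes rose and none fell, against 13.3% of all tested genes called higher and 13.7% called lower (27% in either direction) by limma at a Benjamini-Hochberg adjusted p under 0.05. The calls were SLC6A9, SLC1A5, SLC3A2, SLC38A1, SLC7A5, SLC1A4 and SLC7A11. SLC7A1 and SLC38A2 did not pass. The 10 carriers were chosen with earlier results of these data known, so their count beside all genes is no separate test. In bulk RNA a higher level in every cell and more cells with the transcript cannot be told apart. The median log2 fold change of the 9 was 0.45, beside 0.00 for all tested genes. For the same 7 genes the groups stood apart without overlap in normalized log2 intensity, as they did for 40.5% of all tested genes (20% with shTUSC4 above). On the deposited signal scale the groups overlapped for 4 of the 7, SLC1A5, SLC38A1, SLC7A5 and SLC7A11. On that scale the shTUSC4 mean was below the shCtrl mean for SLC7A1, SLC38A2 and the untested SLC43A1. By probe, 10 of the 12 tested rose and none fell, against 11.8% of all tested probes called higher (24.3% in either direction).

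The number of calls depended on the scaling between arrays. The median signal over all probes was 118, 114 and 126 on the shTUSC4 arrays, against 128, 123 and 123 on the shCtrl arrays, and quantile normalization, used here, sets all 6 arrays to one distribution. Scaling to the median alone left 4 of the 9 carriers called, all higher, while the whole table then had 4.05% of genes higher and 22.6% lower and a median of -0.12. Without normalization it was 3 carriers, with 2.51% of all genes higher and 23% lower and a median of -0.16. All 9 carriers lay above the median of all genes under each of these scalings. Fold changes and calls are differences between the groups, not measured from that median. With quantile normalization the median was 0.0013, so a rise or fall there is also one relative to the median. Under the other scalings the median was negative, so this does not hold for their values and calls. SLC6A9, SLC1A5 and SLC3A2 were called under each of the 3 scalings, SLC1A4 under quantile and median scaling, and SLC38A1, SLC7A5 and SLC7A11 under quantile normalization alone. The log2 fold change of SLC3A2 was 0.39 with median scaling and 0.35 without normalization, that of SLC1A5 was 0.50 and 0.46, that of SLC38A1 was 0.26 and 0.22, that of SLC7A5 was 0.29 and 0.26, and that of SLC7A11 was 0.28 and 0.24.

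**Figure D1:**
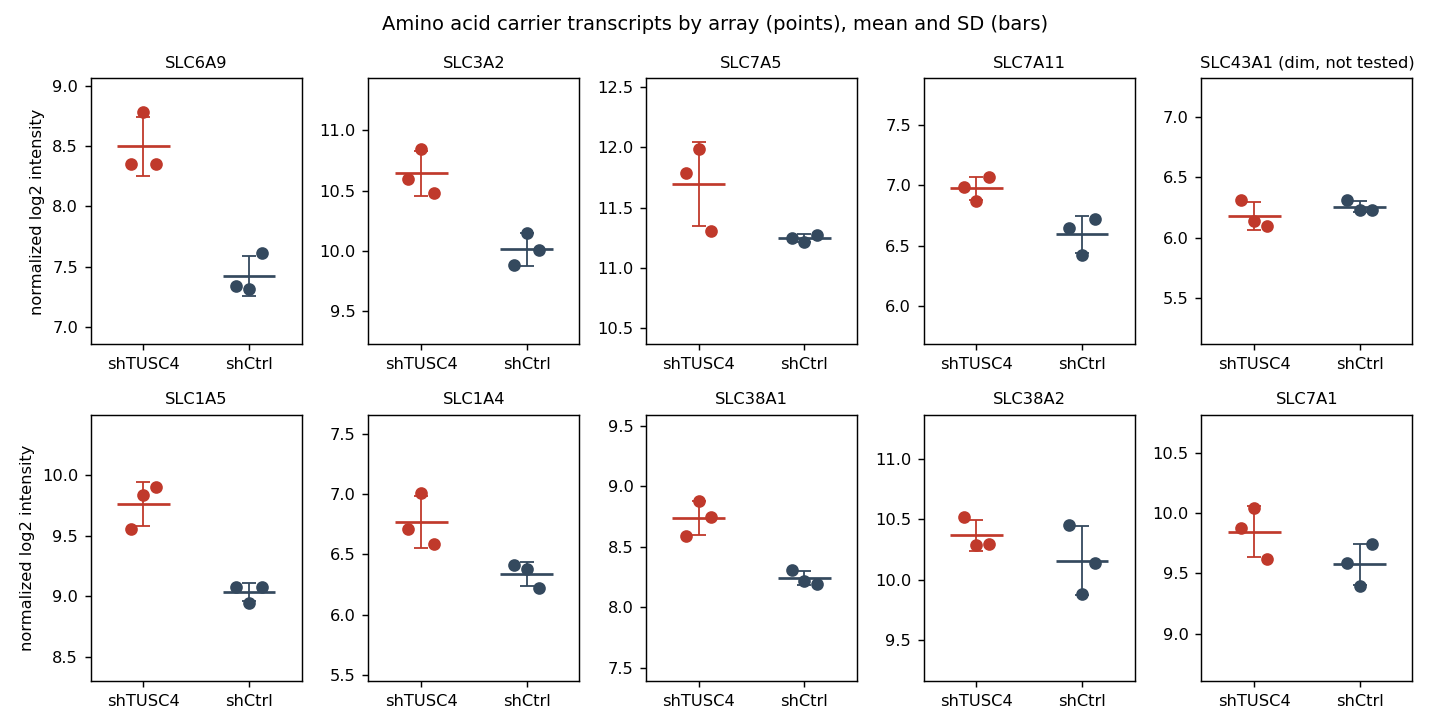
Normalized log2 intensity of the 10 carriers, each by its brightest tested probe (SLC43A1 by its only, dim probe), for the 3 shTUSC4 arrays on the left of each panel and the 3 shCtrl arrays on the right; horizontal bars are means, error bars SD, and every panel spans the same log2 range around its own mean. The groups do not overlap for the 7 called genes and overlap for SLC38A2, SLC7A1 and SLC43A1.

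SLC6A9, which takes up glycine with sodium and chloride, had the largest rise among the carriers. Its deposited signal was 339, 410 and 373 in the shTUSC4 samples, against 240, 210 and 252 in the shCtrl samples. After normalization the log2 intensity was 8.35, 8.78 and 8.35 in shTUSC4 and 7.34, 7.32 and 7.61 in shCtrl. Every shTUSC4 sample lay above every shCtrl sample on both scales. The log2 fold change was 1.07 ± 0.13 (SE; with limma, adjusted p = 1.84e-05), or 2.10-fold, and 0.255% of all tested genes rose by more. Its other 2 probes were not tested, being above background on 1 of 3 shTUSC4 arrays and on none of the shCtrl arrays. Their log2 fold changes were 0.06 and 0.02 (limma adjusted p of 0.847 and 0.964 with no filter on dim probes). The rise of SLC6A9 is therefore a measurement of 1 probe out of 3, and the transcripts that each probe reads were not analysed here.

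SLC3A2 encodes the glycoprotein heavy chain that carries several light chains to the cell surface, and all 3 of its probes rose. Its brightest probe read 10.60, 10.85 and 10.48 in the shTUSC4 samples, against 9.88, 10.15 and 10.01 in the shCtrl samples on the log2 scale. The groups did not overlap, and the log2 fold change was 0.63 ± 0.11 (SE; with limma, adjusted p = 0.000701). The other probes gave 0.76 ± 0.10 and 0.90 ± 0.20 (limma adjusted p of 5.32e-05 and 0.00319 in the fit of all probes). That last probe had the widest spread of the 3, at 8.77, 9.18 and 8.11 in shTUSC4 and 7.53, 8.10 and 7.72 in shCtrl, and its groups differed by only a small gap between the lowest shTUSC4 and the highest shCtrl value. The mean of the 3 probes rose by 0.76.

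SLC7A5, the light chain for large neutral amino acids, also rose, with a call close to the threshold. Its log2 intensity was 11.79, 11.98 and 11.31 in shTUSC4 and 11.25, 11.21 and 11.28 in shCtrl. The third shTUSC4 sample lay just above the control samples and the other two well above. The log2 fold change was 0.45 ± 0.14 (SE; with limma, adjusted p = 0.0227). Leaving out any single array other than shTUSC4 replicate 3 ended the call, with log2 fold changes of 0.30 without shTUSC4 replicate 2, 0.40 without shTUSC4 replicate 1 and 0.45, 0.43 and 0.46 without shCtrl replicates 1, 2 and 3. Without shTUSC4 replicate 3 it was 0.64. The adjusted p of SLC7A5 from limma ran from 0.000325 to 0.175 over the 16 alternatives.

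SLC7A11, the light chain that brings in cystine in exchange for glutamate and so feeds glutathione synthesis, lay near background. Its signal was 162, 146 and 183 in the shTUSC4 samples, against 160, 134 and 154 in the shCtrl samples, and these overlapped before normalization. After it the log2 values were 6.98, 6.87 and 7.07 in shTUSC4 and 6.65, 6.43 and 6.72 in shCtrl, with no overlap. The log2 fold change was 0.38 ± 0.10 (SE; with limma, adjusted p = 0.0137). Without shCtrl replicate 2 the call was lost (0.29, limma adjusted p = 0.0729, with a range of 0.0109 to 0.231 over the alternatives). It was 0.27 with no background correction, 0.55 with an offset of 16 and 0.22 in the authors' processed values.

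Whether the light chains rose by less than their heavy chain was asked with the log2 difference between the genes on each array. SLC7A5 changed by -0.18 relative to SLC3A2 and SLC7A11 by -0.25, each with an exact two-sided permutation p of 0.3 (n = 3 arrays each, adjusted p 0.3 over the 2 comparisons). The smallest p that this permutation test allows with 3 against 3 is 0.1, so it cannot pass the threshold. Over the alternatives the change relative to SLC3A2 ran from -0.32 to -0.067 for SLC7A5, lowest in size without shTUSC4 replicate 3, and from -0.41 to -0.094 for SLC7A11, where it was -0.097 without shTUSC4 replicate 2 and -0.40 without shCtrl replicate 2. SLC43A1, which moves the same large neutral amino acids without a heavy chain, was above background on none of the shTUSC4 arrays and 1 of the 3 shCtrl arrays. Its signal was 121, 109 and 119 in shTUSC4, against 132, 123 and 122 in shCtrl. These signals did not overlap, while the normalized values did, and with no filter the log2 fold change was -0.08 ± 0.10 (SE; with limma, adjusted p = 0.775).

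**Figure D2:**
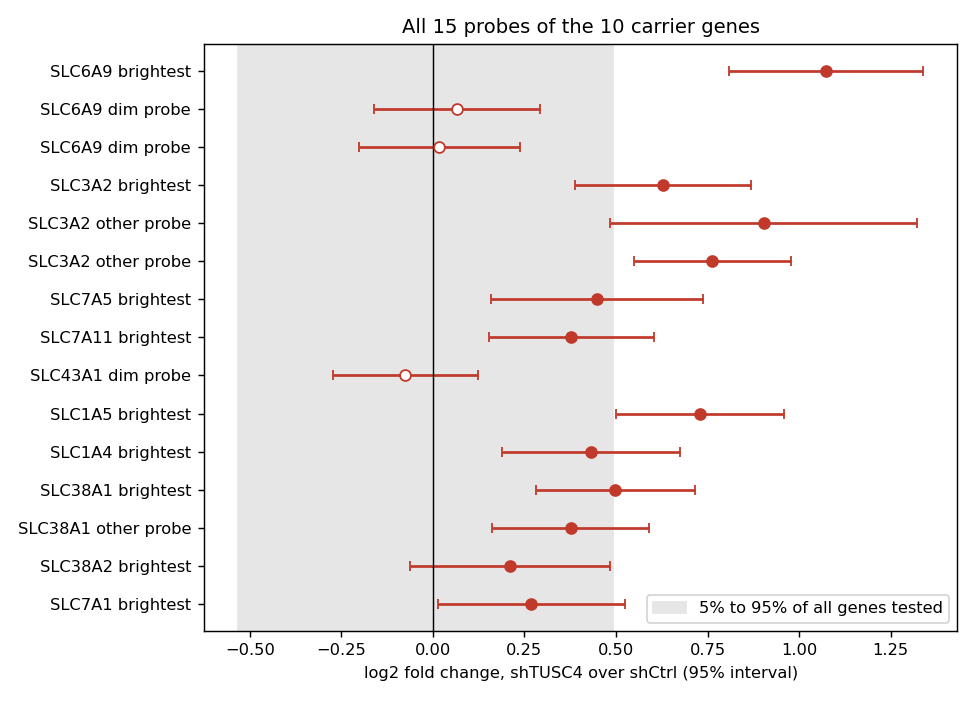
Log2 fold change of shTUSC4 over shCtrl for all 15 probes of the 10 carriers, with 95% confidence intervals; filled points are tested probes, open points are probes too dim to be tested, and the grey band spans the 5th to 95th percentiles of all tested genes (-0.53 to 0.49). The 3 SLC3A2 probes and the 2 SLC38A1 probes lie on the same side, and the 2 dim SLC6A9 probes lie near 0.

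The exchangers of small neutral amino acids rose together. SLC1A5, a main entry route of glutamine in proliferating cells, read 9.55, 9.83 and 9.90 on the log2 scale in the shTUSC4 samples, against 9.08, 8.94 and 9.08 in the shCtrl samples. All shTUSC4 values stood clear of the control values, and the log2 fold change was 0.73 ± 0.11 (SE; with limma, adjusted p = 0.000143), or 1.66-fold. SLC1A4, which carries alanine, serine and cysteine, was dimmer, above background on 3 of 3 shTUSC4 arrays and 2 of 3 shCtrl arrays. It read 6.71, 7.01 and 6.58 in shTUSC4 and 6.41, 6.38 and 6.22 in shCtrl, without overlap, and its log2 fold change was 0.43 ± 0.11 (SE; with limma, adjusted p = 0.0105). The SLC1A4 call was lost without shTUSC4 replicate 2 (0.31, adjusted p = 0.0570) or shCtrl replicate 3 (0.37, adjusted p = 0.0574) in the same limma fit, with a range of 0.00301 to 0.0773 over its alternatives. In the authors' processed values its log2 fold change was 0.24, and with an offset of 16 it was 0.67.

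Of the 2 sodium-coupled carriers of glutamine and other small neutral amino acids, SLC38A1 rose and SLC38A2 did not pass. SLC38A1 read 8.59, 8.88 and 8.75 in the shTUSC4 samples, against 8.31, 8.22 and 8.19 in the shCtrl samples. Its groups did not overlap, with a log2 fold change of 0.50 ± 0.10 (SE; with limma, adjusted p = 0.00178). A second, dimmer SLC38A1 probe gave 0.38 ± 0.10 (SE, adjusted p = 0.0119 in the limma fit of all probes). SLC38A2, whose gene lies next to SLC38A1 on chromosome 12, read 10.52, 10.29 and 10.30 in shTUSC4 and 10.45, 9.88 and 10.14 in shCtrl. One shCtrl sample lay within the range of the shTUSC4 samples, and the log2 fold change was 0.21 ± 0.13 (SE; with limma, adjusted p = 0.254), with a 95% interval of -0.06 to 0.48. It was 0.073 without shCtrl replicate 2 and 0.36 without shCtrl replicate 1. The difference between the 2 genes was not tested.

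SLC7A1, the carrier of arginine, lysine and ornithine, also did not pass. It read 9.87, 10.04 and 9.62 in the shTUSC4 samples, against 9.59, 9.40 and 9.74 in the shCtrl samples, and the groups overlapped. The log2 fold change was 0.27 ± 0.12 (SE; with limma, adjusted p = 0.114), with a 95% interval of 0.01 to 0.52 before adjustment. Without shTUSC4 replicate 3 it passed (0.38, limma adjusted p = 0.0232, with a range of 0.0232 to 0.975 over the alternatives), while the log2 fold change was 0.17 without shTUSC4 replicate 2 and 0.18 without shCtrl replicate 2. On the deposited scale its mean signal was 881 ± 38.7 in shTUSC4 and 896 ± 139 in shCtrl (SD, n = 3 each), and that of SLC38A2 was 1257 ± 154 in shTUSC4 and 1331 ± 386 in shCtrl (SD, n = 3 each).

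Chromosomal position was set beside each gene because neighbouring genes can shift together. The 50 tested genes nearest to each carrier had median log2 fold changes between -0.08 and 0.19. These genes spanned 2.2 Mb around SLC3A2 but 15.6 Mb around SLC7A1 and 28.5 Mb around SLC7A11, so the medians cover unlike distances. SLC6A9, on chromosome 1, lay among genes with the highest of these medians, 0.19, and it exceeded that median by 0.89. Of these neighbours 15 of 50 were called higher and none lower, beside 13.3% of all tested genes called higher. These medians moved with the scaling: that around SLC6A9 was 0.0038 with median scaling and -0.035 with no normalization, and those around the other carriers were all below 0 under both settings. For SLC1A5 on chromosome 19 the neighbours' median was 0.01, for SLC3A2 on chromosome 11 it was -0.02 and for SLC7A5 on chromosome 16 it was 0.03. SLC38A1 and SLC38A2 shared a neighbour median of 0.01. The neighbours of SLC7A1 on chromosome 13 and SLC1A4 on chromosome 2 had medians of -0.06 each, with 7 of 50 called lower and 3 higher around SLC7A1 and 12 of 50 lower and 5 higher around SLC1A4, beside 13.7% of all tested genes called lower. Around SLC7A11, on chromosome 4, the median was 0.08. Each of the 9 tested carriers lay above its neighbours' median.

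**Figure D3:**
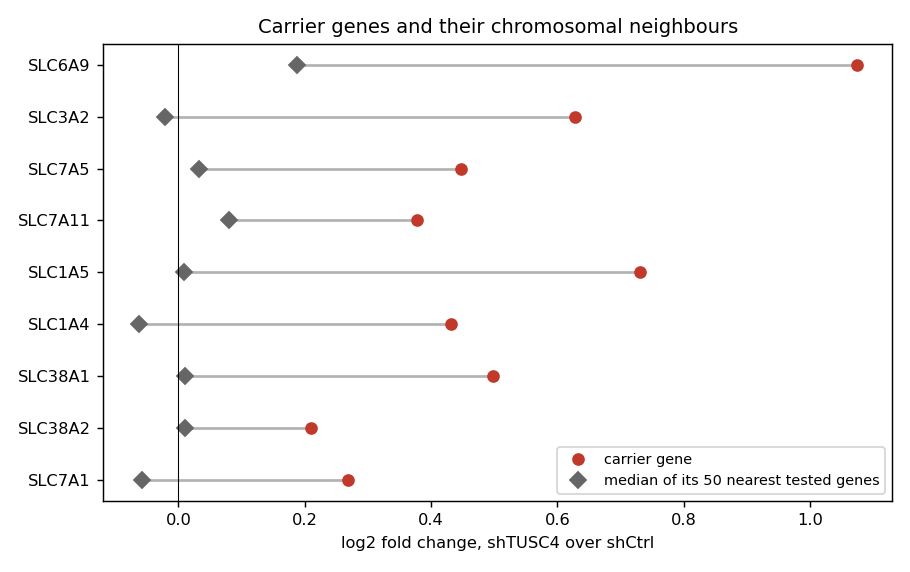
Log2 fold change of shTUSC4 over shCtrl for the 9 tested carriers (circles) and the median of the 50 tested genes nearest to each on its chromosome (diamonds). Every circle lies to the right of its diamond, from 0.20 for SLC38A2 to 0.89 for SLC6A9.

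Other amino acid carriers of the plasma membrane did not show the same pattern of calls. Of 31 listed genes 18 were too dim to be tested. Of the other 13 only SLC7A10 rose, SLC7A2 fell and 11 did not pass, with a median log2 fold change of -0.03. Over all tested genes 27% were called in either direction. The 13 were dim too, with mean signals from 115.5 (SLC38A5 in shTUSC4) to 247.3 (SLC1A3 in shCtrl). SLC7A11, SLC1A4 and, in shCtrl, SLC6A9 lay in that range. The remaining tested carriers were brighter, up to 3162 for SLC7A5 in shTUSC4. SLC7A2, a cationic amino acid carrier of the same family as SLC7A1, had a mean signal of 169.5 ± 18.9 in shTUSC4 and 246.5 ± 5.17 in shCtrl (SD, n = 3 each) and a log2 fold change of -0.47 ± 0.10 (SE; with limma, adjusted p = 0.00283). SLC7A10, another light chain that pairs with SLC3A2 and carries small neutral amino acids, had 0.33 ± 0.10 (SE; with limma, adjusted p = 0.0161). That call was lost without shCtrl replicate 1 (0.33, limma adjusted p = 0.0557) or shCtrl replicate 2 (0.29, limma adjusted p = 0.0675), with a range of 0.0107 to 0.258 over the alternatives, and with median scaling (0.24) or no normalization (0.20). The difference between these genes and the 10 carriers, and the part of brightness in it, were not tested. Both lists were chosen with earlier results of these data known, so the contrast is no separate result.

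Among 10 carriers of the lysosomal membrane, all tested, 3 rose, beside 13.3% of all tested genes, and 7 did not pass, with a median of 0.12. They were SLC15A4, a histidine and peptide exporter, at 0.52 ± 0.10 (SE; with limma, adjusted p = 0.00131), SLC36A4 at 0.44 ± 0.12 (adjusted p = 0.00993 in the same limma fit) and SLC38A9 at 0.38 ± 0.11 (limma adjusted p = 0.0144). SLC38A9 senses lysosomal arginine and passes its state to mTORC1. Of 10 tested mitochondrial carriers of amino acids, SLC25A22, which imports glutamate, rose by 0.48 ± 0.10 (SE; with limma, adjusted p = 0.00277), while SLC25A44, which imports branched-chain amino acids, had -0.60 ± 0.10 (SE; with limma, adjusted p = 0.000318). The other 8 did not pass, and the median was -0.06. Over all tested genes 27% were called in either direction. With median scaling or no normalization the 3 lysosomal rises and that of SLC25A22 were not called, and leaving out 1 array ended the call of SLC36A4 (shTUSC4 replicate 1, 0.36, or shCtrl replicate 3, 0.37) and SLC38A9 (shCtrl replicate 2, 0.32, or shCtrl replicate 3, 0.33).

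**Figure D4:**
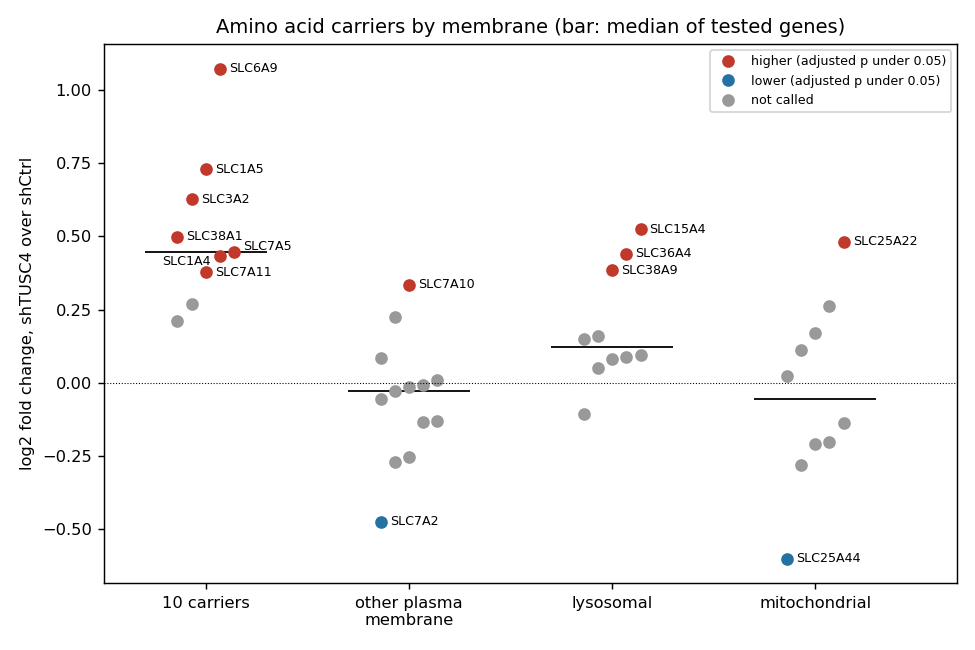
Log2 fold change of shTUSC4 over shCtrl for the 9 tested of the 10 carriers and for the tested other plasma membrane (13), lysosomal (10) and mitochondrial (10) carriers, coloured by call, with a bar at each median. The medians are 0.45, -0.03, 0.12 and -0.06.

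Genes known to regulate carrier transcription were read beside them. Of 16 listed, 7 rose, 2 fell and 7 did not pass, with a median of 0.20. Of all tested genes 13.3% were called higher and 13.7% lower. Like the other lists, this one was chosen with earlier results of these data known. The 2 that fell were RB1 at -0.37 ± 0.12 and EIF2AK3 at -0.34 ± 0.10 (SE; with limma, adjusted p of 0.0332 and 0.0168). ATF3 at 0.33 and DDIT3 at -0.13 were among those that did not pass (limma adjusted p of 0.0504 and 0.490). ATF4 rose by 0.40 ± 0.09 (SE; with limma, adjusted p = 0.00487), with mean signals of 9962 ± 849 in shTUSC4 and 7879 ± 614 in shCtrl (SD, n = 3 each). TRIB3, a pseudokinase that ATF4 induces, rose by 0.97 ± 0.10 (SE; with limma, adjusted p = 5.91e-06), CEBPB, a partner of ATF4 on DNA, by 0.57 ± 0.11 and EIF2AK4, which encodes the kinase GCN2 that senses uncharged tRNA, by 0.53 ± 0.11 (SE; with limma, adjusted p of 0.000936 and 0.00170). NFE2L2, which encodes NRF2, a known activator of SLC7A11, rose by 0.33 ± 0.09 (SE; with limma, adjusted p = 0.0127) with quantile normalization and was not called with median scaling (0.09) or no normalization (0.06). The calls of ATF4 (0.34) and CEBPB (0.36) were lost without normalization and that of EIF2AK4 with median scaling (0.29) and without normalization (0.26). MYC, a known activator of SLC1A5 and SLC7A5, had 0.13 ± 0.13 (SE; with limma, adjusted p = 0.486).

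Enzymes that use imported amino acids moved both ways, with 5 of 15 tested genes higher, 5 lower, 5 not passing and a median of -0.16. Of all tested genes 13.3% were called higher and 13.7% lower. ASNS, which makes asparagine from aspartate and glutamine, rose by 1.41 ± 0.11 (SE; with limma, adjusted p = 3.98e-07) and GPT2, a mitochondrial alanine aminotransferase, by 0.76 ± 0.11 (SE; with limma, adjusted p = 0.000135). GCLC, the catalytic subunit of the first enzyme from cysteine to glutathione, had -0.68 ± 0.10 (SE; with limma, adjusted p = 0.000129), and -0.43 by the mean of its probes. GCLM, the modifier subunit of the same enzyme, named after its values were seen, rose by 0.37 ± 0.10 (SE; with limma, adjusted p = 0.00955).

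The genes closest in profile to SLC6A9, the carrier with the smallest p, were sought by the root mean square distance between centred log2 values over the 6 arrays. They were ITFG3 (0.108), ALOX5 (0.122), LCAT (0.138), OKL38 (0.142) and SERPINA1 (0.142), beside a median distance of 0.574 over 15299 genes. Their log2 fold changes were 1.08, 0.95, 0.89, 1.18 and 1.12. A choice by distance over the same 6 arrays favours genes with a similar group difference, so these fold changes are no separate result.

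The label of the knockdown held for its target, with TUSC4 at a mean signal of 398 ± 73.5 in shTUSC4 and 1008 ± 85.6 in shCtrl (SD, n = 3 each) and a log2 fold change of -1.18 ± 0.10 (SE; with limma, adjusted p = 8.77e-07). Between 20378 and 21485 probes per array lay above background, and correlations of log2 intensity over tested probes were 0.991 to 0.996 within groups and 0.979 to 0.984 between them. Of 8 mesenchymal and osteoblast markers 6 were above background in both groups, VIM, COL1A1 and RUNX2 among them, and COL1A2 and SP7 were not. RUNX2, ALPL and BGLAP were dim, above background on 2 of 3 shTUSC4 arrays and 3 of 3 shCtrl arrays. The summed signal of the 8 was 13660 to 15960 in shTUSC4 and 15170 to 15730 in shCtrl. Most of that sum was VIM, with a mean signal of 12560 in shTUSC4 and 11820 in shCtrl. COL1A1 and RUNX2 fell, with log2 fold changes of -0.96 and -0.68 (limma adjusted p of 1.60e-05 and 0.000280), and their part in the carrier values was not tested. The leukocyte markers PTPRC and CD3E were not above background, nor were the epithelial markers CDH1, KRT5, KRT14 and CLDN4, the endothelial markers CDH5 and VWF, and the neural marker GFAP. Above background on at least 2 of 3 arrays were EPCAM, CD14 and LYZ in both groups, MAP2 in shTUSC4 alone and PECAM1 in shCtrl alone. EPCAM, CD14, LYZ and MAP2 had log2 fold changes of 0.02, -0.0031, 0.11 and 0.20, none past the threshold, and their part in the carrier values was not tested. The number of arrays limits the precision of all values.

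**Figure D5:**
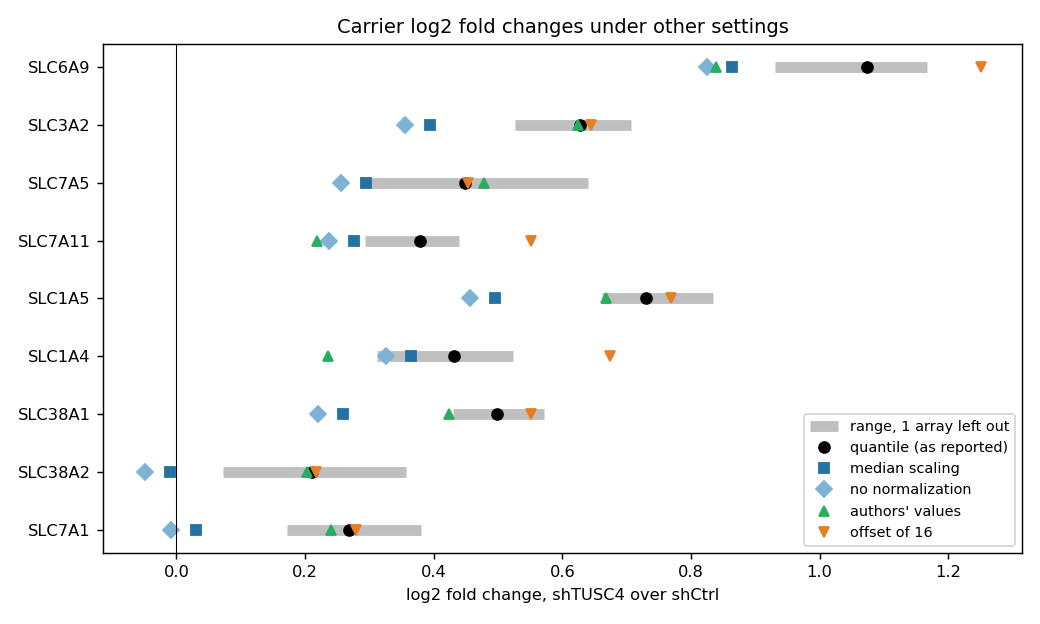
Log2 fold change of shTUSC4 over shCtrl for the 9 tested carriers with quantile normalization (black circles), median scaling, no normalization, the authors' processed values and a background offset of 16; grey bars span the values with 1 array left out. SLC38A2 and SLC7A1 reach 0 or below without normalization, and SLC6A9 stays between 0.83 and 1.25.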

How the data were processed

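Deposited values were of 2 kinds. The first was the average bead signal per probe, an intensity on a linear scale without normalization between arrays, per the file headers. BeadStudio is named per the submitters' processing notes, without a version. The second was the log2 values that the authors processed from those arrays (median 6.89 in each column), with scale and centring as deposited and the offset behind them not stated, and these served as an alternative.

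Signals were corrected with limma's normexp method (limma 3.58.1, R 4.3.3, offset 50), quantile normalized and put on the log2 scale. The offset shrinks fold changes of dim probes. As no detection p-values or control probes were used, background was estimated per array from the mode of the log2 signal (bandwidth 0.05) and the spread below it. Probes above it at p under 0.05 on at least 3 of 6 arrays, whatever the group, were tested. A gene was read by its brightest tested probe, and 3270 probes without a symbol entered no gene comparison. The groups were compared with lmFit and eBayes without covariates, with Benjamini-Hochberg adjustment over all 15300 genes, or 20657 probes. The printed SE and p-values use variances that eBayes draws toward a shared value, not a gene's own spread alone. Named genes are all 10 carriers and TUSC4, up to 10 called genes of the other plasma membrane list, up to 3 of each other list, ATF4, NFE2L2 and MYC always, and the 5 nearest profiles. GCLM, SLC1A3, SLC38A5, RB1, EIF2AK3, ATF3 and DDIT3 were named after their values were seen. The members and lists were chosen with earlier results of these data known. Of the genes tested, 12284 matched a RefSeq gene, used for neighbours and promoters. One listed cell type marker is not reported here. The scripts were tested on simulated data. The alternatives were other scalings, background settings, filters, probe summaries, a variance trend, the replicate block and leaving out each array.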

Additional observations from a re-analysis of the deposited data

How the results depend on the processing

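The count over all genes was lowest without shCtrl replicate 1 (3036, against 4126), while that of called carriers was lowest under other scalings. The number of called carriers was 4 with median scaling and 3 with no normalization, against 7 of 9 as reported, and that of their probes was 6 and 5, against 10 of 12. Of the other plasma membrane carriers 1 was called with median scaling, against 2. With 1 array left out the counts ran from 5 to 8 carriers, 8 to 11 probes and 1 to 3 other carriers (1 without shCtrl replicate 2). Log2 fold changes turned negative for SLC38A2 with median scaling (-0.0099) and no normalization (-0.049), for SLC7A1 with no normalization (-0.0080), and for MYC with median scaling (-0.10), no normalization (-0.14) and without shTUSC4 replicate 2 (a range of -0.025 to 0.26 with 1 array left out). None of these was a call. The cause was not tested. Samples with the same replicate number shared little deviation from their group means (correlations 0.10, 0.05 and -0.11). This does not settle whether they were paired. The replicate block left 7 carriers, 10 probes, 2 other carriers and 4087 genes called, against 4126 genes without it. SLC6A9, SLC1A5 and SLC3A2 were called under all 16 alternatives. Signal near background limits SLC7A11 and SLC1A4.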
